A study of Mus musculus with 8 samples.

Results

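The 9 genes followed here serve glucose use and glycogen in mouse liver and were measured by RNA-seq: *Slc2a2* and *Gckr* for glucose entry, *Pfkl*, *Pfkfb1* and *Pklr* for glycolysis, and *Gys2*, *Pygl*, *Ppp1r3b* and *Ppp1r3c* for glycogen. They were picked by symbol as a list of hepatocyte genes, with earlier results of these data known. Counts and medians set against all genes therefore describe this list and do not test it. The list makes up 9 of the 23337 genes counted. All 9 were among the 14328 genes with enough counts to be tested. Livers came from C57BL/6 mice aged 12 weeks. The groups were labelled WT and Hrd1-/-, and each genotype was studied in the fasted state, reached overnight, and after 4 h of refeeding from that state. This gave 4 groups of 2 samples, 8 altogether. The mutant is called HRD1Alb here, because by the study's methods floxed HRD1 alleles were deleted by Cre under the albumin promoter, and its controls carried the floxed alleles without Cre. Albumin-driven Cre acts in hepatocytes from early liver development and leaves HRD1 in the other cells of the liver. Nothing in the labels says whether the 2 samples of a group came from separate animals, so all p-values measure only the spread between these samples, which may be technical.

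Hepatocytes take up glucose through the transporter GLUT2 and phosphorylate it, a step that a nuclear regulatory protein restrains between meals and releases after a meal. The sugar phosphate is burned through glycolysis or stored as glycogen, and protein phosphatase 1, brought to glycogen by targeting subunits, switches the liver from glycogen breakdown to glycogen synthesis. Many of these steps are set by phosphorylation and allosteric control as well as by mRNA level, and mRNA alone was measured here.

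On GRCm38 with GENCODE M21, the glucose entry genes lie at chr3:28697903-28731359 (*Slc2a2*, plus strand) and chr5:31297443-31327314 (*Gckr*, plus strand). The glycolytic genes lie at chr10:77986947-78010083 (*Pfkl*, minus strand), chrX:150588229-150643878 (*Pfkfb1*, plus strand) and chr3:89136142-89146784 (*Pklr*, plus strand). The glycogen genes lie at chr6:142422613-142473109 (*Gys2*, minus strand), chr12:70190811-70231488 (*Pygl*, minus strand), chr8:35375739-35388139 (*Ppp1r3b*, plus strand) and chr19:36731731-36736653 (*Ppp1r3c*, minus strand). All are protein-coding, and the counts are totals per gene, not per exon or transcript. Exons of *Hcn3*, on the opposite strand, cover 711 of the 3236 exon bases of *Pklr* (21.97%), and those of *Apex2* cover 123 bases of *Pfkfb1* (3.06%). Whether counting used strand is not given in the sources used here, so reads in these stretches cannot be assigned to one gene with certainty. *Hcn3* itself had 74 to 151 counts per sample, against 1654 to 4458 for *Pklr*.

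RefSeq start-site windows on GRCm38.p6 were at hand for 7 of the 9 genes, 11 windows in all, and the 250 bases before each start were searched on both strands. Of these, 2 are printed because they held the carbohydrate response element and the E-box found among the 11. The *Pklr* window belongs to the downstream of its 2 starts, at base 89136623, and covers chr3:89136373-89136622 on the plus strand. Its first capitals are a carbohydrate response element, CACGNG and CNCGTG separated by 5 bases, and its last capitals are TATAAA. The *Ppp1r3c* window covers chr19:36736605-36736854 on the minus strand and is written 5′ to 3′ on that strand. Its capitals mark CACGTG, an E-box.
Pklr: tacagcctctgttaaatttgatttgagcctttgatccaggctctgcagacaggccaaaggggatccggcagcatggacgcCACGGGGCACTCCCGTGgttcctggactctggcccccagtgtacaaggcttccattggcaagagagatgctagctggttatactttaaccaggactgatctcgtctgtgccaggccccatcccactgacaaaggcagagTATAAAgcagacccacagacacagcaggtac
Ppp1r3c: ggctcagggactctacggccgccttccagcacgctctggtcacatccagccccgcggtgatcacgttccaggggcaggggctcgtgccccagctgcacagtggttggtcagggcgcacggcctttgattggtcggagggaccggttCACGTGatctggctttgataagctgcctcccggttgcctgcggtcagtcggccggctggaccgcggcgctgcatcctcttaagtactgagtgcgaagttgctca
The paired element stood 170 to 154 bases before the *Pklr* start and was found in 13 of 32851 windows (0.0396%), in no other window of the 9 genes. The TATAAA of *Pklr* stood 31 to 26 bases before the start, and another was found 193 to 188 bases before 1 of the 4 *Pfkfb1* starts. TATAAA was present in 12.4% of all windows. The E-box of *Ppp1r3c* stood 104 to 99 bases before the start, and CACGTG was present in 6.02% of all windows. A forkhead motif, TGTTTAC, present in 3.17% of all windows, was found in none of the 11. These matches describe letters in a window, and binding was not measured.

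Total counts per sample ranged from 40210576 to 49117080, so that 3 counts correspond to 0.0611 to 0.0746 counts per 1000000 counts (CPM) and all 9 genes lay far above this floor. *Syvn1*, which encodes HRD1, had 111 and 99.8 CPM in fasted WT, 32.6 and 31.5 in fasted HRD1Alb, 637 and 305 in refed WT, and 453 and 132 in the libraries labelled refed HRD1Alb. The library labelled refed HRD1Alb replicate 1 therefore lay between the refed WT libraries, against its label, although counts over the whole gene cannot tell deleted exons from retained ones. *Cyp2b13*, chosen after its values were seen because it differed with genotype in fasted liver, had 406 counts in that library, 570 in refed HRD1Alb replicate 2, 843 and 1112 in fasted HRD1Alb, and 0 or 1 in every WT library. The 2 refed HRD1Alb libraries also stood apart from each other: 3112 genes differed by more than 2-fold between them, against 369 to 1020 within the other groups, and their log2 ratio followed exon length with a rank correlation of -0.51 across genes. Comparisons with refed HRD1Alb are also given without the library labelled replicate 1, because of its *Syvn1* level. Which of the 2 libraries carries the tilt with exon length was not tested, so replicate 2 is not taken as the cleaner one. Many more genes of all kinds passed in the fits without replicate 1, so passing in them says little about the 9 genes. The 10 hepatocyte markers were abundant in all libraries, and their sum, mostly *Alb*, was lower in HRD1Alb. The sum was 142400 to 155200 CPM in fasted WT and 91710 to 92310 in fasted HRD1Alb. It was 115700 to 122900 in refed WT and 67510 to 105900 in refed HRD1Alb. There 1 of 10 was called lower and none higher, against 4.84% and 7.09% of all genes. Not every marker went this way: *Apoa1*, *Ttr* and *Asgr1* in refed HRD1Alb replicate 2 lay above both refed WT libraries. Markers of Kupffer cells and macrophages summed to 137 to 138 CPM in refed WT and to 309 to 637 CPM in refed HRD1Alb, and 9 of 10 were called higher, with a similar gap in fasted liver (122 to 134 against 309 to 413 CPM). Those of stellate cells and fibroblasts summed to 169.6 to 209.2 CPM in refed WT and 361 to 502 CPM in refed HRD1Alb, with 3 of 8 called higher, and lymphocyte markers to 8.6 to 10.9 and 19.9 to 20.1 CPM, with 2 of 8 called higher. In these bulk samples, fewer cells of a type and less RNA per cell cannot be told apart, and the part of these shifts in the results was not tested.

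Refeeding raised *Ppp1r3b* 3.10-fold in WT liver and moved *Pklr* up and *Gys2* down in HRD1Alb liver. In WT liver *Pklr* and *Gys2* went the same way without passing, at log2 fold changes of 0.80 and -0.69. Between genotypes, refed HRD1Alb liver had 2.21-fold less *Ppp1r3b* and 1.60-fold less *Pygl* than refed WT liver. No gene of the 9 passed the threshold between genotypes in fasted liver, and none for the interaction, the test of whether the refeeding response itself differed. All the calls above were lost with replicate number as a block, and each was lost without some single libraries. Differences were tested with the quasi-likelihood test of edgeR over all 14328 genes, and a gene is said to rise or fall at a Benjamini-Hochberg adjusted p under 0.05.

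**Figure D1:**
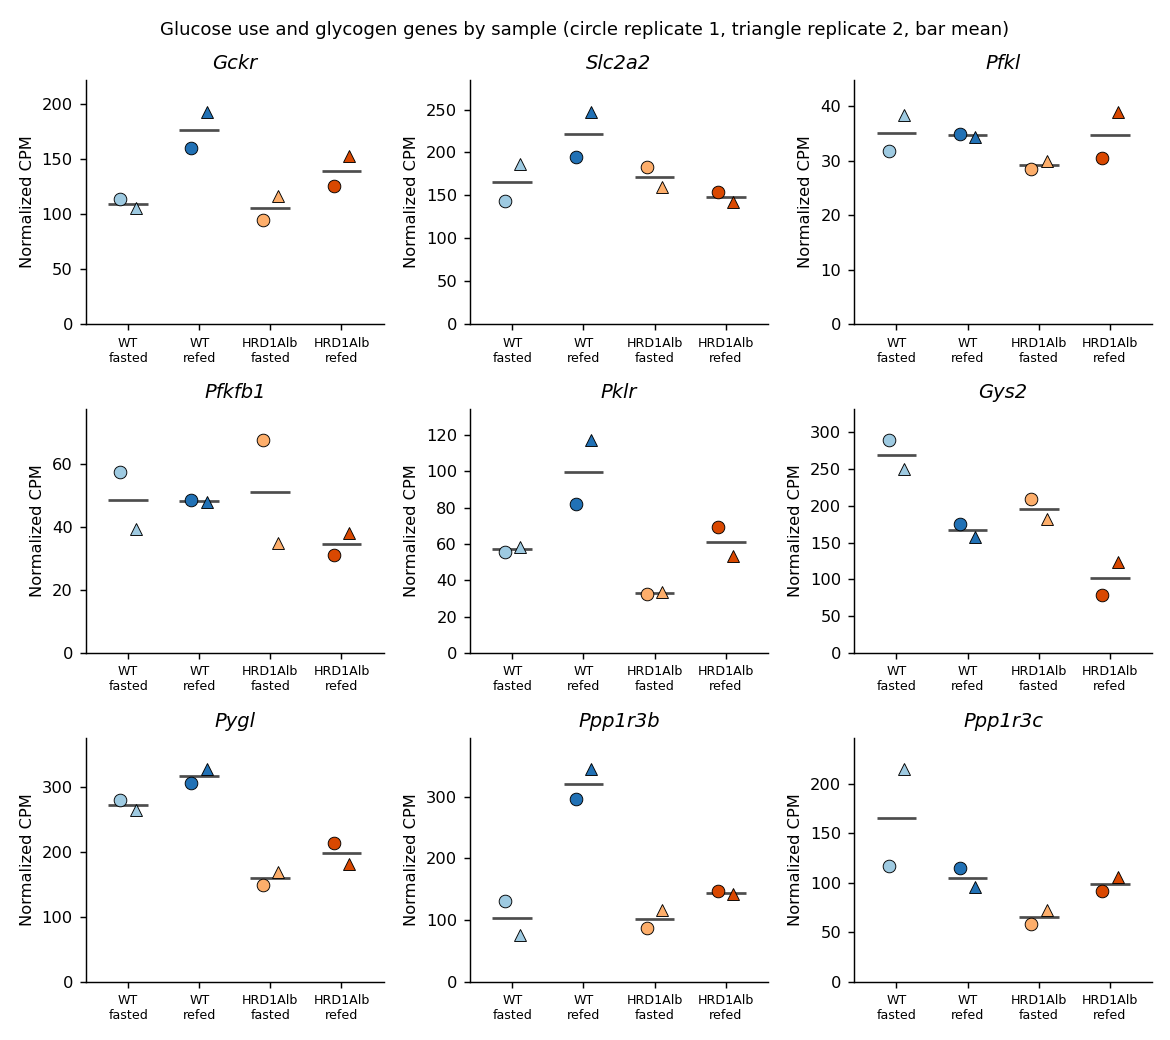
Normalized CPM (vertical axes, from 0) of the 9 genes in the 8 samples, with circles for replicate 1, triangles for replicate 2 and bars for the group mean of 2 samples. *Ppp1r3b* lay at 296 and 345 CPM in refed WT liver, above all other samples, and *Pygl* was lower in all 4 HRD1Alb samples (148 to 214 CPM) than in all 4 WT samples (264 to 326 CPM).

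Compared per kilobase of exon, *Gys2* had the highest mean level of the 9 genes in every group and *Pfkl* the lowest. The *Gys2* level was 102 ± 10.2 CPM per kb in fasted WT, 62.8 ± 4.48 in refed WT, 73.7 ± 7.40 in fasted HRD1Alb and 38.1 ± 11.7 in refed HRD1Alb (SD, n = 2). That of *Pfkl* stayed between 4.39 and 5.27 CPM per kb in the group means. In fasted WT, *Ppp1r3c* came next at 61.0 ± 25.3 CPM per kb, then *Pygl* at 39.4 ± 1.62. *Slc2a2* at 28.7 and *Gckr* at 25.2 followed with overlapping samples, and so did *Pklr* at 17.6, *Ppp1r3b* at 16.6 and *Pfkfb1* at 12.0, each overlapping its neighbour. After refeeding of WT mice, *Ppp1r3b* moved up to the second place at 51.5 ± 5.51 CPM per kb. *Pygl*, *Gckr*, *Ppp1r3c*, *Slc2a2* and *Pklr* came after it at 45.8 to 30.8, and none of them was set off from its neighbour. In fasted HRD1Alb, *Slc2a2* was second at 29.8, ahead of *Gckr*, *Ppp1r3c* and *Pygl* at 24.3 to 23.0, whose samples overlapped. *Ppp1r3b*, *Pfkfb1* and *Pklr* came next at 16.4 to 10.2, again overlapping. In refed HRD1Alb the leading 5 genes, *Gys2*, *Ppp1r3c*, *Gckr*, *Pygl* and *Slc2a2*, overlapped in sequence from 38.1 to 25.6 CPM per kb, and *Ppp1r3b* was sixth at 23.3 ± 0.559.

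The question of the first comparison was how these genes respond to a meal in normal liver. *Slc2a2*, the GLUT2 gene, had 144 and 186 CPM in fasted WT and 195 and 248 CPM in refed WT. Both refed samples were above both fasted samples, but the log2 fold change of 0.42 ± 0.20 (SE) did not pass the test (adjusted p = 0.359). *Gckr*, which encodes the regulatory protein that restrains glucose phosphorylation between meals, had 113 and 105 CPM in fasted and 159.8 and 193 CPM in refed WT liver. Its groups were also separated, with a log2 fold change of 0.69 ± 0.19 and an adjusted p of 0.122.

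Among the glycolytic genes, *Pfkl*, the liver phosphofructokinase, did not move past its spread. It had 31.8 and 38.5 CPM in fasted and 34.9 and 34.4 CPM in refed WT liver, for a log2 fold change of -0.02 with a 95% interval of -0.44 to 0.40. *Pfkfb1*, the bifunctional enzyme that makes and removes fructose 2,6-bisphosphate, had 57.5 and 39.2 CPM in fasted and 48.5 and 47.9 CPM in refed WT liver. Its refed samples lay inside the fasted range, and the interval of -0.76 to 0.75 leaves changes of either sign possible. The sign of both near-zero changes turned positive when libraries were scaled by total counts.

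*Pklr* encodes the liver pyruvate kinase, the last step of glycolysis and a textbook target of the carbohydrate response element factor ChREBP, the product of *Mlxipl*. In WT liver it had 55.5 and 58.6 CPM after fasting and 82.1 and 117 CPM after refeeding. Both refed samples were higher (1.75-fold), with an adjusted p of 0.117. In HRD1Alb liver it went from 32.3 and 33.7 CPM to 69.3 and 53.1 CPM, again with no overlap, and rose 1.85-fold (log2 fold change 0.89 ± 0.22, adjusted p = 0.0444). Without the library labelled refed HRD1Alb replicate 1 the log2 fold change was 0.68. The call was lost without any 1 of the 6 libraries outside that group. The window printed above with the paired element belongs to this gene.

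Of the glycogen genes, *Gys2*, the liver glycogen synthase, was lower after refeeding. It had 289 and 251 CPM in fasted WT and 175 and 158 CPM in refed WT. These groups did not overlap, and the log2 fold change of -0.69 ± 0.23 had an adjusted p of 0.193. In HRD1Alb it went from 209.8 and 182 CPM to 79.3 and 124 CPM and fell 1.93-fold (log2 fold change -0.95 ± 0.23, adjusted p = 0.0444). Without the library labelled refed HRD1Alb replicate 1 the log2 fold change was -0.67. Without any 1 of the 6 libraries of the other groups the call was lost. *Pygl*, the liver glycogen phosphorylase, had 279.5 and 264 CPM in fasted and 305 and 326 CPM in refed WT liver, a log2 fold change of 0.22 ± 0.16 (adjusted p = 0.595). Per exon base, *Gys2* stood to *Pygl* at 2.47 to 3.67 in the fasted libraries and at 0.964 to 1.77 in the refed libraries of both genotypes.

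*Ppp1r3b* encodes GL, the main subunit that brings protein phosphatase 1 to glycogen in liver. It had 131 and 75.5 CPM in fasted WT and 296 and 345 CPM in refed WT. Both refed samples were above both fasted ones, and the gene rose 3.10-fold (log2 fold change 1.63 ± 0.28, adjusted p = 0.0361). The direction held without each library in turn, at log2 fold changes of 1.32 to 2.08. The call was lost without any of the 6 libraries outside refed HRD1Alb. In HRD1Alb liver *Ppp1r3b* went from 87.7 and 116 CPM to 147 and 142 CPM, a separated difference of 0.51 ± 0.27 on the log2 scale that did not pass (adjusted p = 0.239), and 0.48 without the library labelled refed HRD1Alb replicate 1 (adjusted p = 0.226).

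*Ppp1r3c* encodes PTG, another glycogen-targeting subunit. Its fasted WT samples were far apart, at 117 and 215 CPM, and its refed WT samples had 115 and 95.4 CPM. Both refed samples were lower, by -0.66 ± 0.29 on the log2 scale, with an adjusted p of 0.318. This value rests on fasted WT replicate 2: without it the log2 fold change was -0.13, and without fasted WT replicate 1 it was -1.03. In HRD1Alb liver *Ppp1r3c* had 58.8 and 72.5 CPM after fasting and 91.3 and 105 CPM after refeeding. Both refed samples were higher there, by 0.58 ± 0.29 (adjusted p = 0.206), and by 0.68 without the library labelled refed HRD1Alb replicate 1 (adjusted p = 0.112).

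Of the 9 genes, 1 passed the test upward after refeeding of WT mice and none downward, where 1.2% of all genes tested were called higher and 1.41% lower. With no overlap between the fasted and refed samples, 5 were higher and 2 lower, where this held for 30.8% and 29.6% of all genes. In HRD1Alb mice 1 was called higher and 1 lower, against 5.43% and 5.05% of all genes, and 6 were separated upward and 2 downward, against 29.2% and 29.5%. At an unadjusted p under 0.05 stood 4 of the 9 in WT, where 16.3% of all genes did, and 2 of the 9 in HRD1Alb, where 31.7% did. The median log2 fold change of the 9 genes was 0.22 in WT and 0.31 in HRD1Alb, against 0.00 and 0.02 over all genes tested. None of the remaining refeeding values in HRD1Alb passed: *Gckr* was at 0.40 ± 0.19, *Pygl* at 0.31 ± 0.16 and *Pfkl* at 0.25 ± 0.18 on the log2 scale, with *Slc2a2* at -0.22 ± 0.20 and *Pfkfb1* at -0.57 ± 0.32. The adjusted p values of these 5 genes ran from 0.189 to 0.473. When the library labelled refed HRD1Alb replicate 1 was left out, *Gckr* was at 0.54, *Pfkl* at 0.41, *Pygl* at 0.19, *Slc2a2* at -0.28 and *Pfkfb1* at -0.44. The *Pfkfb1* value ran from -0.97 without fasted HRD1Alb replicate 2 to -0.02 without fasted HRD1Alb replicate 1. Without either refed HRD1Alb library the log2 fold changes of *Gckr*, *Pklr* and *Gys2* in WT liver were 0.69, 0.80 and -0.69, unchanged to 2 decimals. In all such fits the lone remaining sample is assumed to vary like the other groups.

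**Figure D2:**
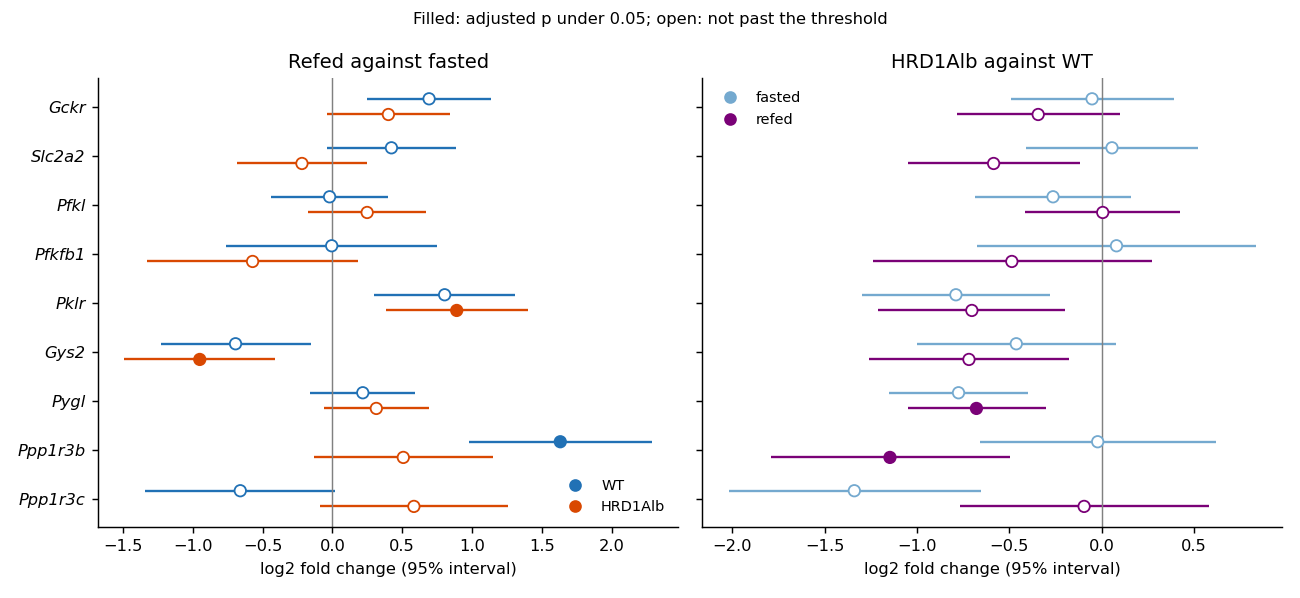
Log2 fold changes of the 9 genes (horizontal axes) with 95% intervals, refed against fasted in each genotype at left and HRD1Alb against WT in each feeding state at right, over 2 samples a group. Filled points passed an adjusted p of 0.05: *Ppp1r3b* in WT and *Pklr* and *Gys2* in HRD1Alb at left, and *Pygl* and *Ppp1r3b* in refed liver at right.

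The next comparison asked what hepatocyte HRD1 deletion did to these genes in the fasted state. No gene passed the threshold in either direction, against 0.921% called higher and 0.433% lower among all genes, and 3 had an unadjusted p under 0.05, as had 18.4% of all genes. The DESeq2 test called those 3, *Ppp1r3c*, *Pygl* and *Pklr*, lower, where it called 1094 of all genes in either direction. By limma no gene of the list was called, where 266 of all genes were. *Ppp1r3c* was at 58.8 and 72.5 CPM in HRD1Alb against 117 and 215 CPM in WT, a log2 difference of -1.34 ± 0.29 (adjusted p = 0.0755). It was -0.81 without fasted WT replicate 2 and -1.72 without fasted WT replicate 1. *Pygl* was at 148 and 169 CPM against 279.5 and 264 CPM, a difference of -0.77 ± 0.16 (adjusted p = 0.0673). *Pklr* was at 32.3 and 33.7 CPM against 55.5 and 58.6 CPM, a difference of -0.79 ± 0.22 (adjusted p = 0.12).

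These 3 genes, with *Gys2* and *Pfkl*, make the 5 of 9 whose HRD1Alb samples were both below both WT samples, where this held for 34.2% of all genes. None was separated upward, against 30.6%. *Gys2* differed by -0.46 ± 0.23 (209.8 and 182 CPM against 289 and 251 CPM) and *Pfkl* by -0.26 ± 0.18 (28.6 and 30.0 CPM against 31.8 and 38.5 CPM), the latter turning positive with total-count scaling. *Gckr*, *Slc2a2*, *Pfkfb1* and *Ppp1r3b* overlapped between genotypes, with log2 differences of -0.05 to 0.08 whose signs depended on the processing. Scaling by total counts moved the median of all genes from -0.02 to 0.36 here, from 0.04 to 0.26 in refed liver and from 0.00 to 0.15 for refeeding in WT. Directions are therefore relative to the TMM scaling, which sets the typical gene near 0. When either refed HRD1Alb library was left out, *Pklr*, *Gys2*, *Pygl* and *Ppp1r3c* had almost the same differences in fasted liver (without replicate 1, -0.79, -0.46, -0.78 and -1.34). These libraries enter the fasted comparison mainly through the shared estimate of spread.

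In refed liver the genotype difference was called for 2 of the 9 genes, both lower in HRD1Alb. *Ppp1r3b* was at 147 and 142 CPM in the libraries labelled refed HRD1Alb, far below the 296 and 345 CPM of refed WT. Its log2 difference was -1.15 ± 0.28 (95% interval -1.79 to -0.50, adjusted p = 0.0419). *Pygl* was at 214 and 181 CPM against 305 and 326 CPM, a difference of -0.68 ± 0.16 (interval -1.05 to -0.30, adjusted p = 0.0402).

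Neither group pair overlapped. Without the library labelled refed HRD1Alb replicate 1 the differences were -1.18 for *Ppp1r3b* and -0.81 for *Pygl*. The call of *Ppp1r3b* was lost without HRD1Alb fasted 1 or 2 or WT refed 1 or 2 (adjusted p = 0.0822 to 0.219), and that of *Pygl* without any of these or of the 2 fasted WT libraries (adjusted p = 0.0765 to 0.229). With total-count scaling neither passed, at -0.92 and -0.45.

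Of the others, *Pklr* was at 69.3 and 53.1 CPM in refed HRD1Alb against 82.1 and 117 CPM in refed WT, a log2 difference of -0.70 ± 0.22 (adjusted p = 0.0747). *Gys2* was at 79.3 and 124 CPM against 175 and 158 CPM, a difference of -0.72 ± 0.23 (adjusted p = 0.0818). *Slc2a2* was at 153 and 142 CPM against 195 and 248 CPM, a difference of -0.58 ± 0.20 (adjusted p = 0.0919). In all 3 the genotypes did not overlap. Without the library labelled refed HRD1Alb replicate 1 the 3 differences were -0.91, -0.44 and -0.65. The *Gys2* difference was -1.08 without replicate 2, so that its size depended on which library stayed.

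*Gckr* was at 125 and 153 CPM against 159.8 and 193 CPM (-0.34 ± 0.19, adjusted p = 0.235), and *Pfkfb1* at 30.9 and 37.9 CPM against 48.5 and 47.9 CPM (-0.49 ± 0.32, adjusted p = 0.315). Both were separated downward without passing the test, and without the library labelled refed HRD1Alb replicate 1 they were at -0.21 and -0.35 (adjusted p = 0.322 and 0.452). *Ppp1r3c* and *Pfkl* overlapped, with differences of -0.09 ± 0.29 and 0.01 ± 0.18, and both signs changed with the processing. Altogether 7 of 9 were separated downward and none upward, against 30.1% and 30.7% of all genes, and the edgeR calls stood at 2 lower and none higher against 4.84% and 7.09%. At an unadjusted p under 0.05 stood 5 of the 9, against 33.3% of all genes. The median difference of the 9 genes was -0.59 on the log2 scale in refed and -0.26 in fasted liver, against 0.04 and -0.02 over all genes.

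**Figure D3:**
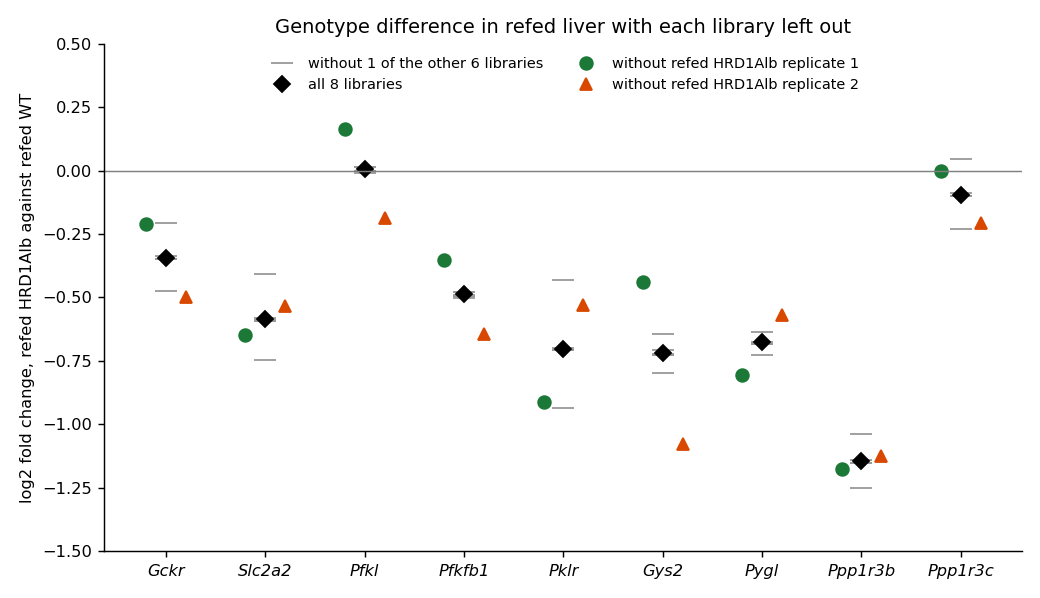
Log2 fold change of refed HRD1Alb against refed WT (vertical axis) for the 9 genes with all 8 libraries (diamonds) and with each library left out in turn. *Ppp1r3b* stayed between -1.25 and -1.04 throughout, whereas *Gys2* was -0.44 without refed HRD1Alb replicate 1 (circle) and -1.08 without replicate 2 (triangle).

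Whether HRD1 deletion changed the refeeding response was tested by the interaction, the log2 refeeding response in HRD1Alb minus that in WT. No gene of the 9 passed, and neither did any of the 14328 genes (0%). At an unadjusted p under 0.05 the test marked 2 of the 9 and 8.44% of all genes, 1209 in number, while DESeq2 called 105 genes and limma none, with none of the 9 among them. The 2 were *Ppp1r3c*, with an interaction of 1.24 ± 0.41 (adjusted p = 0.561), and *Ppp1r3b*, with -1.12 ± 0.39 (adjusted p = 0.577). Responses of the 2 glycogen-targeting subunits thus had interaction estimates of opposite sign. *Ppp1r3c* was separated downward in WT and upward in HRD1Alb. *Ppp1r3b* was separated upward in both, at 1.63 and 0.51.

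Without the library labelled refed HRD1Alb replicate 1 the interaction of *Ppp1r3c* was 1.34, and that of *Ppp1r3b* was -1.15. The *Ppp1r3c* value ranged from 0.72 without fasted WT replicate 2 to 1.61 without fasted WT replicate 1. *Slc2a2* was the other gene whose samples were separated in opposite directions, upward in WT and downward in HRD1Alb. Its interaction was -0.64 ± 0.28 (95% interval -1.30 to 0.02, adjusted p = 0.595), and -0.70 without the library labelled refed HRD1Alb replicate 1. Of all genes, 30.8% were separated upward and 29.6% downward in WT, and 29.2% and 29.5% in HRD1Alb. How many were separated in opposite directions was not counted, so the pattern is a description only. For the other 6 genes the interaction lay between -0.57 and 0.27 with unadjusted p of 0.253 or more. Within each library, *Ppp1r3b* stood to *Ppp1r3c* per exon base at 0.489 and 0.154 in fasted WT, 1.13 and 1.58 in refed WT, 0.654 and 0.7003 in fasted HRD1Alb, and 0.707 and 0.591 in refed HRD1Alb. The ratio was above 1 in the refed WT libraries only, among these 8, and the HRD1Alb groups overlapped.

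**Figure D4:**
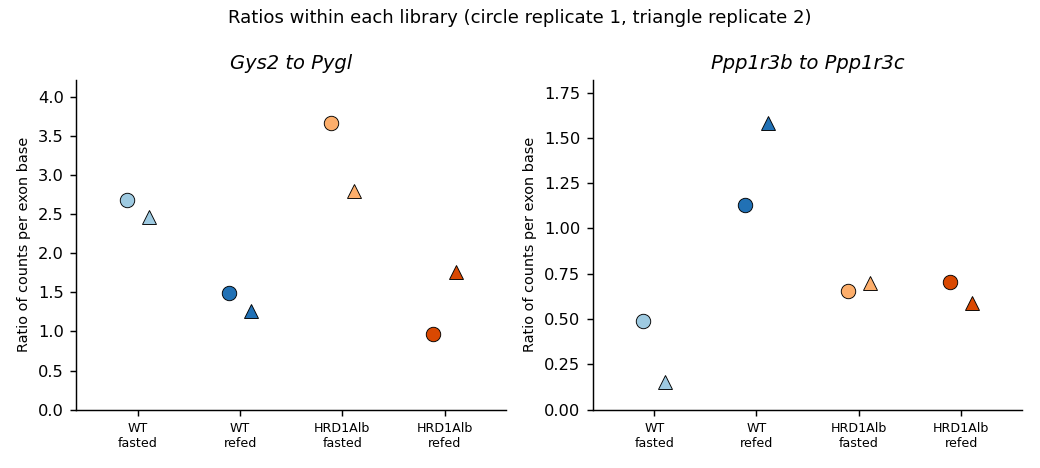
Ratios of counts per exon base within each library (vertical axes, from 0), with circles for replicate 1 and triangles for replicate 2. *Gys2* to *Pygl* was lower in all refed than in all fasted libraries, and *Ppp1r3b* to *Ppp1r3c* exceeded 1 in both refed WT libraries.

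The wider pathway was described with 67 other genes of glucose uptake, glycolysis, glycogen and their transcription factors, 64 of which were tested. After refeeding, 2 were called higher and 1 lower in WT, where 1.2% and 1.41% of all genes were called. In HRD1Alb 3 were higher and 2 lower, where 5.43% and 5.05% of all genes were called. WT refeeding raised *Srebf1*, the insulin-responsive activator of lipogenesis, 4.76-fold (log2 fold change 2.25, adjusted p = 0.0336), and the log2 fold change was 1.52 without refed WT replicate 2 and 2.73 without refed WT replicate 1. It also raised *Slc2a9*, a transporter of the GLUT family that carries urate, 1.79-fold (adjusted p = 0.0399). *Ppp1r3g*, a fasting-linked targeting subunit of the *Ppp1r3b* family, fell in both genotypes. It had 202 and 950 counts in fasted WT and 8 and 1 in refed WT, 945 and 587 in fasted HRD1Alb and 10 and 10 in refed HRD1Alb, with adjusted p values of 0.0272 and 0.0118. Its refed counts are near the floor, so no fold is given. The WT call was lost without WT fasted 2, HRD1Alb fasted 1 or 2 or WT refed 1 or 2. The HRD1Alb call was lost without HRD1Alb fasted 1 or 2. In HRD1Alb, *Stbd1*, which tethers glycogen to membranes, rose 2.50-fold (adjusted p = 0.0106), and *Slc2a5*, the fructose transporter, fell 2.53-fold (adjusted p = 0.0294). *Pfkfb3*, a relative of *Pfkfb1*, rose 2.29-fold (adjusted p = 0.0338). With the library labelled refed HRD1Alb replicate 1 left out, the log2 fold changes of these 3 were 1.13, -1.06 and 1.07. The call of *Stbd1* was lost without HRD1Alb fasted 1 or 2 (adjusted p = 0.115 and 0.0953), that of *Pfkfb3* without these or WT refed 1 or 2 (0.0834 to 0.231), and that of *Slc2a5* without any of the 6 libraries outside refed HRD1Alb (0.0647 to 0.2). That library bears on the counts too: without it many more genes were called in HRD1Alb liver, among the 64 and over all genes alike. The calls of *Srebf1* and *Slc2a9* in WT were lost without any of the 6 libraries outside refed HRD1Alb, with adjusted p values of 0.0606 to 0.208 and 0.123 to 0.36.

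Between genotypes none of the 64 passed in fasted liver by edgeR or limma. There 12 had an unadjusted p under 0.05, against 18.4% of all genes. DESeq2 called 2 higher and 2 lower, where it called 1094 of all genes in either direction. In refed HRD1Alb 5 were higher and 5 lower, where 7.09% and 4.84% of all genes were called. Leaving out the library labelled refed HRD1Alb replicate 1 raised these counts, as it did the counts over all genes. None of these calls was kept without either refed WT library. With total-count scaling 11 were higher and 1 lower. Calls over all genes also shifted toward higher with that scaling, and their median log2 difference went from 0.04 to 0.26. By the TMM scaling, the calls were spread over the groups of the list. The lower ones lay in uptake and phosphorylation (2 of 11), glycogen synthesis (1 of 8), glycogen breakdown (1 of 11) and the transcription factors (1 of 8). The higher ones lay in glycogen breakdown (2 of 11), uptake and phosphorylation (1 of 11), glycogen synthesis (1 of 8) and glycolysis (1 of 19). *Mlxipl*, the ChREBP gene, had 278 and 306 CPM in refed WT and 144 and 83.7 CPM in refed HRD1Alb, a log2 difference of -1.36 ± 0.28 (adjusted p = 0.0292). *Slc2a5* differed by -1.68 ± 0.28 (adjusted p = 0.0177). With the library labelled refed HRD1Alb replicate 1 left out, the differences were -1.81 for *Mlxipl* and -1.40 for *Slc2a5*. Without replicate 2 of that group they were at -1.02 and -2.03. The call of *Mlxipl* was lost without any of the 6 other libraries (adjusted p = 0.051 to 0.181), and that of *Slc2a5* without either refed WT library (0.104 and 0.143).

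Among the higher ones were *Hk3*, a hexokinase of blood cells, at 1.80 ± 0.39 (adjusted p = 0.0327), and *Pkm2*, the pyruvate kinase of non-hepatocyte tissues, at 1.69 ± 0.28 (adjusted p = 0.017). Without the library labelled refed HRD1Alb replicate 1 they were at 2.19 and 2.01, and without replicate 2 of that group both were at 1.26. The call of *Hk3* was lost without any of the 6 other libraries (adjusted p = 0.0594 to 0.201), and that of *Pkm2* without either refed WT library (0.13 and 0.159). The Kupffer cell and macrophage markers given above moved the same way, and their part in these values was not tested. In glycolysis 1 of 19 was called higher and none lower, and no PP1 subunit among 7 was called. The median over the 64 genes was -0.0037, against -0.59 for the 9 genes and 0.04 for all genes. Both lists were chosen with earlier results of these data known, so these medians describe the lists and do not test them. *Eno1* was listed at 0 or 1 count in every library while a near-identical copy, *Gm5506*, had 160 to 286, so that neither is a usable level.

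**Figure D5:**
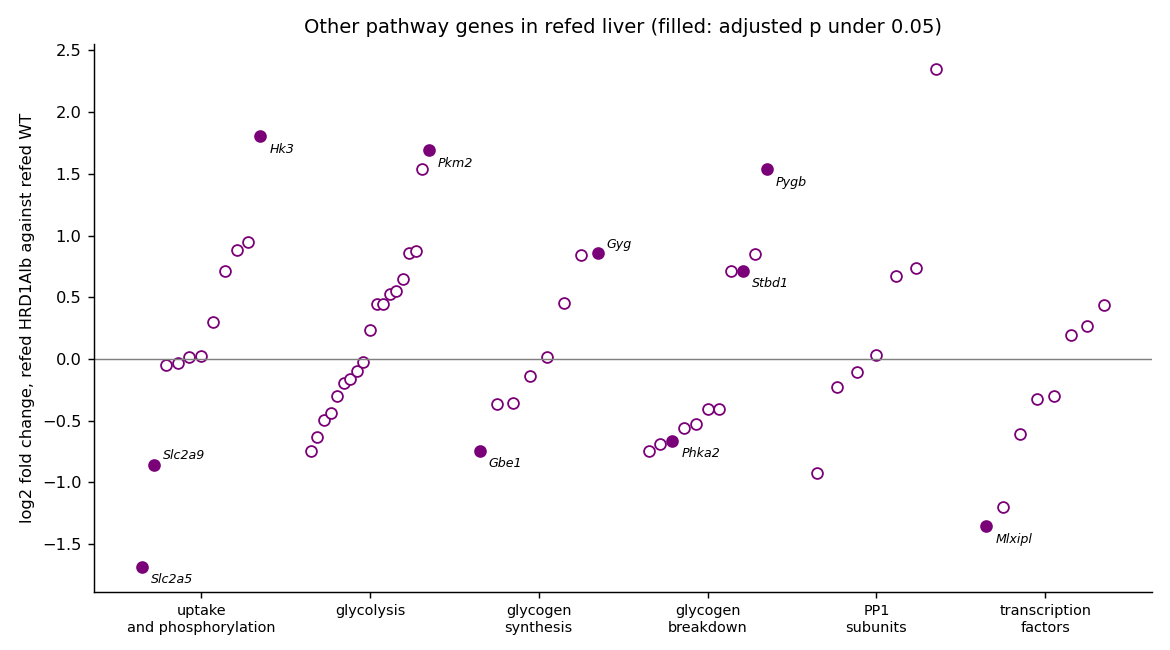
Log2 fold change of refed HRD1Alb against refed WT (vertical axis) for the 64 other pathway genes tested, grouped by role, with filled points and names for the 10 that passed an adjusted p of 0.05. *Slc2a5* at -1.68 and *Mlxipl* at -1.36 lay lowest, and *Hk3* at 1.80 was highest of those that passed.

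The genes whose levels ran most like those of the 9 genes over the 8 libraries were looked up among 8035 genes with a mean of at least 10 CPM. These correlations share the 4 groups and the library differences above and are descriptions only. *Gys2* ran close to *Decr2* (r = 0.983), a peroxisomal enzyme of fatty acid oxidation. *Gckr* ran closest to *Adra1b* and *Sc5d* (both r = 0.966), the latter an enzyme of cholesterol synthesis. *Pfkfb1* ran closest to *Slc37a4* (r = 0.865), the glucose 6-phosphate transporter, and *Zkscan5* (r = 0.858).

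For *Pklr* the closest genes were *Sdccag3* (r = 0.98) and *2810008M24Rik* (r = 0.969), and for *Pygl* they were *Farp1* (r = 0.989) and *Smg5* (r = 0.987). *Ppp1r3b* was matched by *Atp6v0a1* (r = 0.987) and *Tmem25* (r = 0.975), and *Ppp1r3c* by *Myo10* (r = 0.962) and *1110049F12Rik* (r = 0.912). *Slc2a2* was matched by *Cyp2c40* (r = 0.942) and *Gbp7* (r = 0.921), and *Pfkl* by *Ywhae* (r = 0.991) and *Rab8a* (r = 0.966). Among the 9 genes themselves, *Gckr* and *Ppp1r3b* ran most alike (r = 0.918), followed by *Pklr* and *Pygl* (r = 0.867), and *Gckr* and *Gys2* least (r = -0.4).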

How the data were processed

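Liver RNA-seq of WT and HRD1Alb mice was analysed from the counts the authors deposited, as whole-number counts per gene symbol with 1 file per sample and no normalization. By the study's methods reads were counted with ERANGE, whereas the submitters' processing notes list cutadapt, STAR, HTSeq, DESeq2 and mm10 without versions. Which of these made the files, and whether counting used strand, is not given in the sources used here.

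Samples were grouped by their labels. The 9 genes, the pathway list and the marker lists were chosen with earlier results of these data known. Genes passing filterByExpr of edgeR 4.0.16 (R 4.3.3; minimum count 10, minimum total 15) were fitted over 8 samples and 4 groups with TMM scaling and the quasi-likelihood test, two-sided, and p-values were adjusted by Benjamini-Hochberg over 14328 genes. A design of 2 against 2 samples allows no exact permutation p below 0.333, so single-gene permutation tests were not used. SEs were obtained as the size of the log2 fold change over the square root of F. CPM values are TMM-normalized, and CPM per kb divides by merged GENCODE M21 exon length, so lengths unlike the isoform used in liver would shift levels between genes. Alternatives were size factors of DESeq2 1.42.0, its Wald test, limma 3.58.1 (trend), no filter, at least 10 counts in every sample, blocking on replicate number and leaving out each library. Scaling by total counts and a correction for exon length were added after seeing the data. Named genes were the 9 genes, *Syvn1*, *Mlxipl*, up to 4 pathway genes per comparison past the threshold with a mean of at least 1 CPM, by size, and for each of the 9 the 2 genes with the highest correlation over the samples. Some genes that this rule or the pathway list would have included are not reported here. *Cyp2b13*, *Eno1*, *Gm5506*, *Hcn3* and *Apex2* were named outside this rule. Statistical steps were tested on simulated data.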

Additional observations from a re-analysis of the deposited data

Results flagged for a closer look

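Of the 9 genes, 3 were flagged for their refeeding response by genotype. The rule was an interaction with an unadjusted p under 0.05, or samples separated in opposite directions in WT and HRD1Alb. Fasted and refed samples are separate libraries, and how many of all genes met the second rule was not counted. The interaction was 1.24 for *Ppp1r3c* on the log2 scale (edgeR unadjusted p = 0.0176, adjusted p = 0.561), and both refed samples were lower in WT and higher in HRD1Alb liver. It was -1.12 for *Ppp1r3b* (unadjusted p = 0.0217, adjusted p = 0.577), which was separated upward in both genotypes. It was -0.64 for *Slc2a2* (unadjusted p = 0.0542, adjusted p = 0.595), with both refed samples higher in WT and lower in HRD1Alb liver. None passed the adjusted threshold, and over all genes 1209 of 14328 had an unadjusted p under 0.05.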

How the results depend on the processing

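Over 45 results (9 genes, 5 comparisons) and 16 alternatives, 611 of 720 values kept their direction and side of the threshold, 35 passed it anew, 36 lost it and 38 changed sign. RLE scaling changed none. The cause of the other changes was not tested. With DESeq2 the number of the 9 genes past the threshold became 3 for WT refeeding (1 as reported), 3 for the fasted genotype difference (0 as reported) and 5 for the refed one (2 as reported). With no filter it was 1 in fasted liver (*Ppp1r3c*). With total-count scaling it was 1 for HRD1Alb refeeding (2 as reported) and 0 for the refed genotype difference, and with the length correction 2 in fasted and 4 in refed liver and 3 for HRD1Alb refeeding, where *Pygl* passed at 0.57 (adjusted p = 0.0441). Leaving out libraries gave 0 to 4 for WT refeeding, 0 to 4 for HRD1Alb refeeding, 0 to 4 in fasted liver, 0 to 5 in refed liver and 0 to 1 for the interaction. The highest of these were reached without the library labelled refed HRD1Alb replicate 1.

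Counts over all genes moved as widely. DESeq2 called 1086 (374 as reported), 2921 (1501), 1094 (194), 3190 (1709) and 105 (0) genes for WT refeeding, HRD1Alb refeeding, fasted genotype, refed genotype and interaction. No filter gave 323 in fasted liver and 2 for the interaction, total counts 238 for WT refeeding and 887 in fasted liver (840 higher and 47 lower, against 132 and 62), and the length correction 641 and 555 (260 higher and 295 lower in fasted liver). In refed liver the split was 1016 higher and 693 lower, 1975 and 283 with total counts, and 1116 and 1380 with the length correction. For WT refeeding, total counts gave 162 higher and 76 lower, against 172 and 202. Without single libraries the counts ran from 0 to 2508, 15 to 7496, 0 to 3159, 1 to 7705 and 0 to 4878. The refed genotype difference called 7705 genes without refed HRD1Alb replicate 1 and 3466 without replicate 2.

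The replicate numbers are shared between groups, and same-numbered samples deviated together only weakly (r = 0.0131 to 0.189). The labels do not say whether a number marks a batch or a pairing. Correlations this weak, with 2 samples a group, cannot decide it. With the replicate block none (0) of the 9 genes passed in any comparison, and 119 genes passed in fasted liver. In that fit *Ppp1r3b* had 1.64 (adjusted p = 0.0502) for WT refeeding and -1.15 (adjusted p = 0.0554) in refed liver, *Pygl* -0.68 (0.053) in refed liver, and *Pklr* 0.90 (0.0579) and *Gys2* -0.95 (0.0593) for HRD1Alb refeeding, all by edgeR. Signs near 0 changed for 2 values: *Pfkfb1* 0.023 for WT refeeding and *Pfkl* -0.0041 in refed liver.

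Signs that changed elsewhere belonged to values that had not passed. For WT refeeding, *Pfkfb1* was 0.021 with limma, 0.14 with total counts and 0.0017 with the length correction, and *Pfkl* 0.13 and 0.027 with the last 2. In fasted liver, *Ppp1r3b* was 0.019 with limma, 0.0072 with at least 10 counts in every sample and 0.35 with total counts, which also gave *Gckr* 0.33 and *Pfkl* 0.12. The length correction gave *Slc2a2* -0.031 and *Pfkfb1* -0.030. In refed liver, *Pfkl* was -0.0038 with limma and -0.0088 with no filter, and *Ppp1r3c* was 0.11 with total counts. For the interaction, total counts gave *Pklr* -0.058 and *Pygl* -0.054.

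Without single libraries the range for WT refeeding was -0.15 to 0.15 for *Pfkl* and -0.23 to 0.30 for *Pfkfb1*. In fasted liver it was -0.12 to 0.29 for *Slc2a2*, -0.33 to 0.43 for *Ppp1r3b*, -0.47 to 0.48 for *Pfkfb1* and -0.21 to 0.084 for *Gckr*. In refed liver it was -0.18 to 0.17 for *Pfkl* and -0.23 to 0.044 for *Ppp1r3c*. For the interaction it was -0.14 to 0.36 for *Pklr*, -0.61 to 0.025 for *Gys2* and -0.029 to 0.21 for *Pygl*. The 9 genes had at least 1276 counts in every library, and each group held 2 samples.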
